A study of Mus musculus with 12 samples.

Results

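Granzymes and cytotoxic granule genes were followed in the small intestine of mice given tauroursodeoxycholic acid (TUDCA), a taurine-conjugated bile acid, or its vehicle after an allogeneic transplant. The genes are Gzma, Gzmb, Gzmc, Gzmk and Gzmm, which encode granzymes, with Prf1, Nkg7, Srgn and Ctsw, which encode other proteins linked to the granules or the cells that carry them. They were chosen as 9 listed names, and a gene was counted as measured where a probe set of the array names it and no other gene. By that rule 8 of the 9 were measured, in a series where 21408 genes have such a probe set, and Gzmk is not analysed here.

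All mice were wild-type BALB/c animals that had received whole-body irradiation and then bone marrow and T cells of C57BL/6N donors, and RNA was taken on day 14. The 6 mice of the treated group had daily intraperitoneal TUDCA at 200 mg/kg, and the 6 mice of the vehicle group had an equal volume (200 µl) of vehicle. The animals' age was not given in the sources used here, and no group without a transplant or with syngeneic cells was part of the comparison. Each mouse is represented by 1 array, with 1 log2 intensity per probe set as the authors deposited it. Sample numbers given in the labels cluster in a low range, which holds 2 TUDCA arrays with 4 from vehicle mice, and a high range, which holds 4 TUDCA arrays with 2 from vehicle mice. The labels leave unsaid what separates these ranges, and differences were estimated within them.

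Cytotoxic T cells and natural killer (NK) cells kill by releasing granules toward a target cell. Perforin, encoded by Prf1, opens the target membrane, and granzymes, a family of serine proteases, enter and cleave proteins there. The proteoglycan serglycin, encoded by Srgn, packs these proteases in the granule, and after allogeneic transplantation granule killing by donor T cells is one of the ways in which the gut epithelium is damaged.

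In the intestine of TUDCA-treated mice the transcripts of granzyme A and granzyme B were lower, whereas those of perforin were at nearly the same level in both groups. Gzma fell by 1.97 on the log2 scale (SE 0.28, adjusted p = 0.00216 by limma), and Gzmb fell by 1.55 (SE 0.35, adjusted p = 0.0307 by limma). Nkg7, Ctsw and Srgn had smaller differences below 0 that did not pass the threshold of an adjusted p of 0.05. The call of Gzmb ended without TUDCA replicate 2, and both calls ended without the term for the number range described above. In all, 2 of the 8 measured genes were lower past the threshold and 0 were higher, where 1.52% of all 23991 probe sets were lower, 1% higher and 2.52% either. At an unadjusted p under 0.05, 6 of the 8 were lower, against 6.84% of all probe sets, and 0 were higher. The median difference of the 8 genes was −0.49 and that of all probe sets 0.01. In whole tissue, fewer cells of a type and less RNA per cell cannot be told apart.

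Correlations between the 12 arrays lay between 0.984 and 0.993, and no pair of arrays was identical. TUDCA replicate 2 had the lowest level of T cell transcripts of all arrays and also the lowest Gzma and Gzmb, while its mean correlation with the other arrays was 0.989, near the median of 0.990. Results for the granule genes are therefore given with and without it. The 13 epithelial markers averaged between 11.0 and 11.3 in every array, so the labelled tissue was represented. A description field of the labels names CXCL12-abundant reticular cells instead of intestine. The 9 reticular markers averaged 6.97 to 7.34 with TUDCA and 6.96 to 7.32 with vehicle, with 0 past the threshold.

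The promoters of Gzma, Gzmb and Prf1 are shown because the first 2 genes fell together while the third did not pass. Each window of 300 bases runs from 250 bases before to 50 after the gene start on the gene's own strand, from RefSeq on build GRCm38.p6, at chr13:113100932-113101231 on the minus strand for Gzma, chr14:56262285-56262584 on the minus strand for Gzmb and chr10:61297586-61297885 on the plus strand for Prf1. Capitals mark matches, on either strand, to 1 of 5 short motifs.
Gzma: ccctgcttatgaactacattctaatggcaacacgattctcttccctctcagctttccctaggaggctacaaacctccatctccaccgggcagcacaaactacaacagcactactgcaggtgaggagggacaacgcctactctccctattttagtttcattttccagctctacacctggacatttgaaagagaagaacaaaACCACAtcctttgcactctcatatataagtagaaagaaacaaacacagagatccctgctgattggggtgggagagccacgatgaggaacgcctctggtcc
Gzmb: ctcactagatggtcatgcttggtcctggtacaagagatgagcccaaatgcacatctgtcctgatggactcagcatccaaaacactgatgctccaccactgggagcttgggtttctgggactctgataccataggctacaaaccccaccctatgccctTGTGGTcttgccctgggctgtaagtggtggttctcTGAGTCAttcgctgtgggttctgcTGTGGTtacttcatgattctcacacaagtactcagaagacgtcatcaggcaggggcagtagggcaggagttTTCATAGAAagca
Prf1: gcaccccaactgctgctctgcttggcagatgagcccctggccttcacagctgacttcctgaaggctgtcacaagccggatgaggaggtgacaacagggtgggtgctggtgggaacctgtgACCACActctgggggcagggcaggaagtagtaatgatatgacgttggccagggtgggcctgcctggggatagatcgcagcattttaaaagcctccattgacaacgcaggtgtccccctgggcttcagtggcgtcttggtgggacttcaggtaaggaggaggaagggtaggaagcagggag

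The 5 motifs were TGTGGT for RUNX factors, which 16.8% of the 32851 promoters of the RefSeq table hold, TGACTCA for AP-1 (5.2%), GGTGTGA for T-box factors (3.98%), TGACGTCA for CREB-type factors (1.79%) and TTCNNNGAA for STAT factors (8.3%). RUNX, T-box, AP-1 and STAT proteins are transcription factors of activated and cytotoxic lymphocytes. None of these motifs contains another. Gzma held 1 match, to the RUNX letters on the opposite strand. Gzmb held 4, of which 2 were to the RUNX letters, 1 to the AP-1 letters and 1 to the STAT letters. Prf1 held 1, again to the RUNX letters on the opposite strand. Of the 8 listed genes with an entry in the table, all but Gzmk had a RUNX match in at least 1 window. Gzmm and Srgn had 2 windows each and held the RUNX letters in only 1 of them. The shares over all promoters count single windows, so they are not the same measure. The T-box letters matched in Gzmk, Gzmm and Nkg7, the STAT letters in Gzmb, Gzmm and Nkg7, the CREB letters in Gzmc and the AP-1 letters in Gzmb alone. These matches describe the letters of the windows, and no binding was measured. Both genes that fell and the gene that did not pass share the RUNX letters.

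Granzyme A is a tryptase-like protease made by cytotoxic T cells and NK cells. Its log2 intensity ran from 4.68 to 7.69 with TUDCA (median 7.46) and from 7.84 to 9.22 with vehicle (median 8.35). Every TUDCA array lay below every vehicle array, a separation seen for 1.18% of all probe sets, and TUDCA replicate 2 was far below its group. The means were 6.91 ± 1.17 (SD, n = 6) with TUDCA and 8.42 ± 0.49 (SD, n = 6) with vehicle. The difference within the ranges, −1.97 (95% interval −2.57 to −1.38), is larger than that between these means, since the ranges hold unequal numbers of the 2 groups, and it is 3.93-fold on the linear scale, and Gzma ranked 49 by p among all probe sets. An exact two-sided permutation test over the 225 relabelings within the ranges gave p = 0.00444, the smallest such a test can give.

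Gzma differed in the same direction in both number ranges. Within the low range it stood at 4.68 and 6.53 in the 2 TUDCA arrays, against 7.84 to 8.36 in vehicle. Within the high range it lay from 7.45 to 7.69 in the 4 TUDCA arrays, against 8.73 and 9.22 in vehicle. The difference was −2.54 in the low range (adjusted p = 0.0134 by limma) and −1.41 in the high range (adjusted p = 0.035 by limma). The difference between the ranges was 1.13 ± 0.49 (SE), with an unadjusted p of 0.0368 and an adjusted p of 0.625 for the interaction in limma. Without TUDCA replicate 2 the Gzma difference was −1.48 ± 0.13 (SE, adjusted p = 0.000126 by limma). Its call was kept with each of the 12 arrays left out in turn, and it ended without the range term (−1.51, adjusted p = 0.0869 by limma).

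Granzyme B cleaves after aspartate and activates caspases in the target cell. Gzmb ran from 4.75 to 7.88 with TUDCA (median 7.20) and from 7.26 to 9.0 with vehicle (median 7.84). Unlike those of Gzma, the groups overlapped: 3 TUDCA arrays exceeded the lowest vehicle array. The means were 6.85 ± 1.11 (SD, n = 6) and 8.02 ± 0.62 (SD, n = 6), and the difference of −1.55 (95% interval −2.30 to −0.80) is 2.93-fold on the linear scale. Each of the 6 TUDCA arrays lay below the vehicle mean of its own range, and the exact two-sided permutation test gave p = 0.00889.

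The Gzmb difference was −2.18 in the low range (adjusted p = 0.0423 by limma) and −0.92 in the high range (adjusted p = 0.385 by limma). Its interaction with the range had an unadjusted p of 0.0689 and an adjusted p of 0.668 in limma. The call of Gzmb ended without TUDCA replicate 2 (−1.05 ± 0.27 SE, adjusted p = 0.0859 by limma), so that 1 of the 8 genes passed there. It also ended with TUDCA replicate 1 or vehicle replicate 1, 3 or 5 left out, where the adjusted p in limma went no higher than that. Without the range term the difference was −1.18 (adjusted p = 0.2 by limma).

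**Figure D1:**
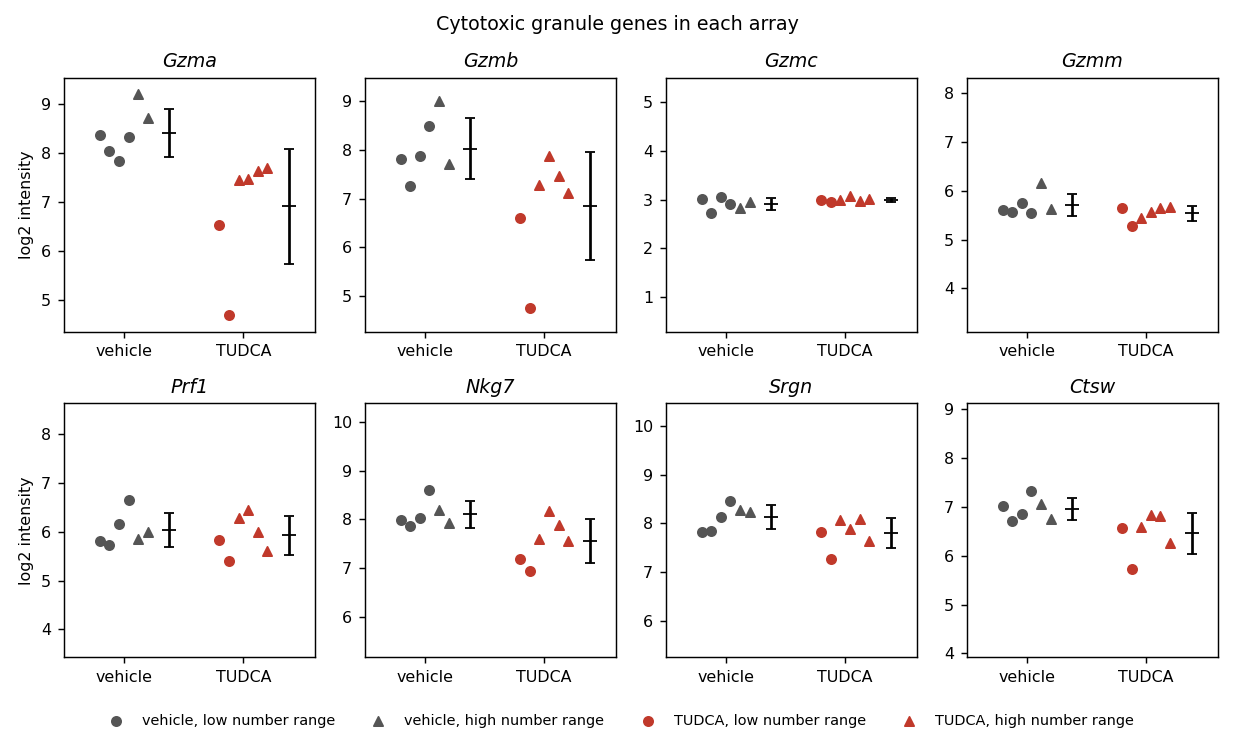
Log2 intensity of the 8 measured granule genes on each array, vehicle in grey and TUDCA in red, with circles for the low and triangles for the high number range and bars for the mean ± SD of the 6 arrays of a group. All panels span the same number of log2 units. Gzma separates the groups, Gzmb overlaps between them, Prf1 lies at 5.40 to 6.44 with TUDCA and 5.72 to 6.66 with vehicle, and Gzmc is flat near 3.

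Granzyme M, a protease found mainly in NK cells and innate-like T cells, did not pass the threshold. Gzmm ran from 5.27 to 5.67 with TUDCA (median 5.60) and from 5.55 to 6.16 with vehicle (median 5.62). The means were 5.54 ± 0.15 and 5.71 ± 0.23 (SD, n = 6 each), and the difference of −0.23 ± 0.11 (SE) did not pass (adjusted p = 0.333 by limma). The top vehicle array, replicate 5, lay well above the 5 others. Gzmc, a granzyme of strongly activated T cells, was at 3.00 ± 0.04 with TUDCA and 2.91 ± 0.12 with vehicle (SD, n = 6 each). These levels lie below the lower quartile of all values, 4.58, so that the difference of 0.08 ± 0.07 (SE, adjusted p = 0.686 by limma) comes from a probe set near the low end of the arrays. Without TUDCA replicate 2 the difference was −0.18 for Gzmm and 0.10 for Gzmc (adjusted p = 0.565 and 0.686 by limma).

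Perforin transcripts showed no shift of the size seen for Gzma. Prf1 ran from 5.40 to 6.44 with TUDCA (median 5.91) and from 5.72 to 6.66 with vehicle (median 5.92). The groups overlapped almost fully, and 3 of 6 TUDCA arrays lay below the vehicle mean of their range. The difference was −0.15 ± 0.19 (SE, adjusted p = 0.79 by limma), and its 95% interval from −0.57 to 0.26 leaves out the differences of Gzma and Gzmb. That interval holds the smaller difference of Srgn, −0.42, so a fall of that size in Prf1 is not excluded. The Prf1 means, 5.93 with TUDCA and 6.03 with vehicle, lie near the median of the probe set means, 5.93. The Prf1 difference was −0.48 in the low range and 0.17 in the high range, and 0.0056 without TUDCA replicate 2.

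Of the granule-associated genes, Nkg7, a membrane protein of cytotoxic granules that takes part in their release, came nearest to the threshold. Nkg7 ran from 6.95 to 8.18 with TUDCA (median 7.58) and from 7.86 to 8.61 with vehicle (median 8.02). In 5 of 6 TUDCA arrays it lay below the vehicle mean of its range. The means were 7.56 ± 0.45 and 8.10 ± 0.27 (SD, n = 6 each), and the difference within the ranges was −0.65 ± 0.17 (SE, adjusted p = 0.0669 by limma) with a 95% interval of −1.02 to −0.28. The low range alone gave −1.05 (adjusted p = 0.0226 by limma) and the high range −0.25 (adjusted p = 0.687 by limma). The difference between the ranges was 0.80 ± 0.29 (SE), and the interaction had an unadjusted p of 0.014 and an adjusted p of 0.582 in limma. Without TUDCA replicate 2 the difference was −0.50 (adjusted p = 0.242 by limma).

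Ctsw encodes cathepsin W, a papain-like protease of T and NK cells. It ran from 5.72 to 6.83 with TUDCA (median 6.57) and from 6.72 to 7.32 with vehicle (median 6.94), with TUDCA replicate 2 lowest and the groups overlapping. The difference was −0.56 ± 0.17 (SE, adjusted p = 0.115 by limma). Srgn, which many blood cells express besides lymphocytes, ran from 7.26 to 8.08 with TUDCA (median 7.86) and from 7.83 to 8.45 with vehicle (median 8.18). Its difference was −0.42 ± 0.13 (SE, adjusted p = 0.123 by limma). For both genes all 6 TUDCA arrays lay below the vehicle mean of their range, and neither passed without TUDCA replicate 2 (−0.34 and −0.29, adjusted p = 0.338 and 0.363 by limma).

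**Figure D2:**
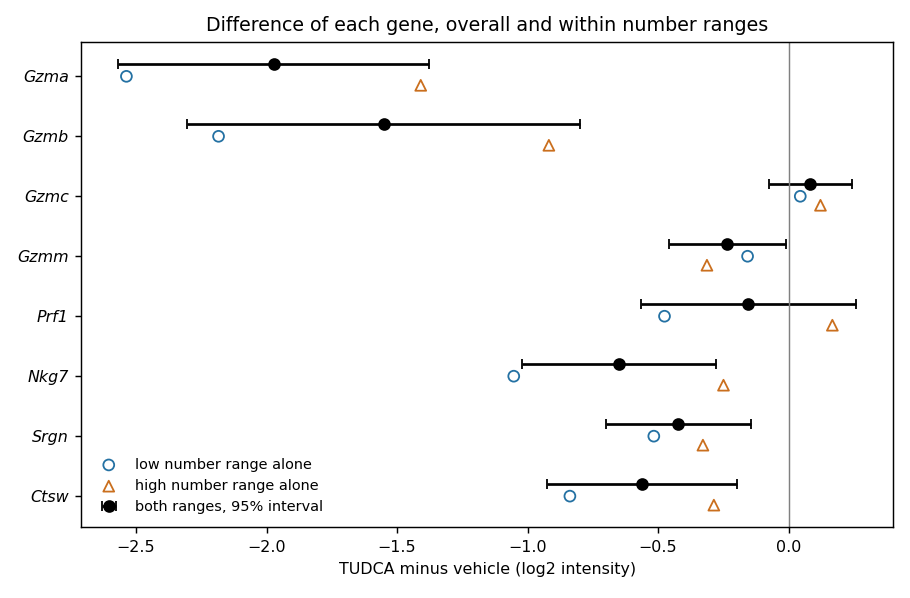
TUDCA minus vehicle difference in log2 intensity for each granule gene, with filled points and 95% intervals for both ranges together, open circles for the low and open triangles for the high range alone. Gzma lies at −1.97 and Gzmb at −1.55. The Prf1 interval crosses 0, and its ranges lie on opposite sides of 0, at −0.48 and 0.17.

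The granule genes differed in how they followed T cell transcripts from array to array. The pan-T cell level is the mean centred log2 value of 9 measured markers of 12 listed, the CD3 chains Cd3d, Cd3e and Cd3g, the surface receptors Cd2, Cd5, Cd6 and Cd28, and the signalling genes Zap70 and Lat. This level differed by −0.41 ± 0.15 (SE) between TUDCA and vehicle, and by −0.25 ± 0.13 (SE) without TUDCA replicate 2. Over the 12 arrays, which share treatment groups and ranges, Pearson correlations with it were 0.97 for Ctsw, 0.94 for Nkg7, 0.93 for Gzmb, 0.87 for Srgn, 0.85 for Gzma and 0.74 for Prf1. For Gzmm the correlation was 0.48 and for Gzmc −0.04. Leaving out TUDCA replicate 2 lowered that of Gzma to 0.60 and that of Gzmb to 0.82, while Ctsw stayed at 0.92 and Nkg7 at 0.93.

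Each gene was then set against the pan-T cell level of the same array. Gzma minus that level differed by −1.56 (95% interval −2.14 to −0.98), and by −1.23 (−1.59 to −0.88) without TUDCA replicate 2. For Gzmb the value was −1.14 (−1.85 to −0.42), and −0.79 (−1.39 to −0.20) without that array. Both granzymes were thus lower by more than the average of the 9 T cell markers. The markers themselves differed by −0.11 for Cd6 up to −0.93 for Cd3e and −0.96 for Cd3g. Gzmb did not pass when the pan-T cell level was a term of the fit, as given below. The difference from that level was −0.15 (−0.32 to 0.03) for Ctsw, −0.01 (−0.24 to 0.23) for Srgn and −0.24 (−0.47 to −0.00) for Nkg7. The first 2 intervals hold 0, which does not show that these genes moved as the T cell markers did, and the third lies just below 0. Without TUDCA replicate 2 the Nkg7 value was −0.25 (−0.53 to 0.03), an interval that holds 0. With the pan-T cell level as a term of the fit Nkg7 was at −0.13 (adjusted p = 0.691 by limma). Prf1 stood at 0.26 (−0.05 to 0.57), Gzmm at 0.18 (−0.22 to 0.57) and Gzmc, near the low end of the arrays, at 0.50 (0.17 to 0.82).

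With the pan-T cell level as a further term of the fit, the Gzma difference was −1.25 ± 0.26 (SE, adjusted p = 0.0468 by limma). The same fit without TUDCA replicate 2 gave −1.38 (adjusted p = 0.00278 by limma). Gzmb did not pass with that term (−0.47 ± 0.23 SE, adjusted p = 0.407 by limma). A term for the mean of the coreceptor genes Cd8a and Cd8b1, chosen after the data had been seen, ended the Gzma call as well (−0.58, adjusted p = 0.434 by limma), and it turned the Gzmb difference to 0.34 (adjusted p = 0.638 by limma). With that term 2 probe sets were higher and 4 lower among all. The CD8 level itself differed by −0.85 ± 0.19 (SE). As a plain difference from the CD8 level, Gzma stood at −1.13 (95% interval −1.58 to −0.67), Gzmb at −0.70 (−1.32 to −0.09) and Prf1 at 0.69 (0.31 to 1.08). Ctsw stood at 0.29 (0.18 to 0.39) and Srgn at 0.43 (0.15 to 0.70), so both were lower by less than the CD8 genes. Nkg7 stood at 0.20 (−0.09 to 0.49), Gzmm at 0.61 (0.19 to 1.03) and Gzmc at 0.93 (0.51 to 1.36).

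**Figure D3:**
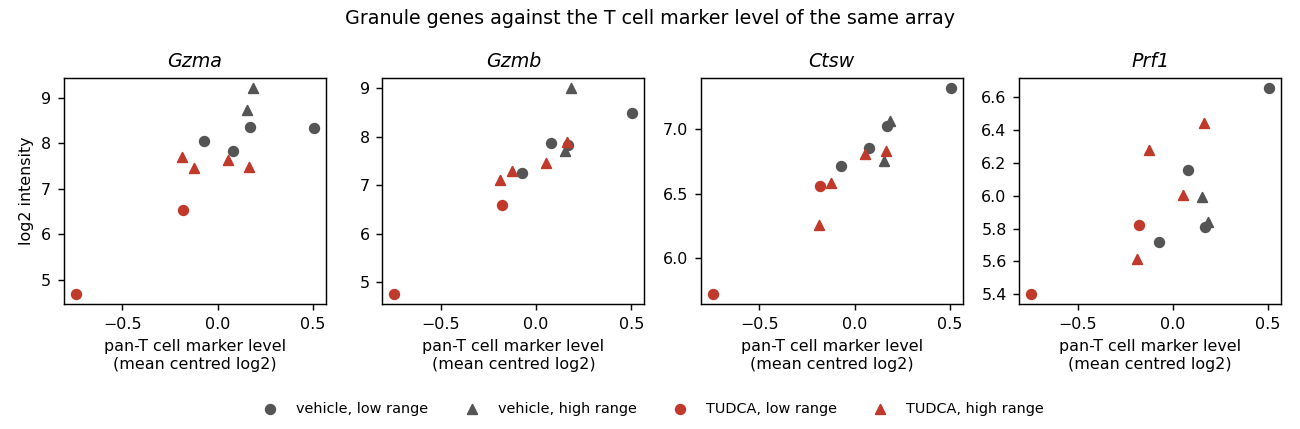
Log2 intensity of Gzma, Gzmb, Ctsw and Prf1 against the pan-T cell marker level of the same array, in mean centred log2 units, vehicle in grey and TUDCA in red, circles for the low and triangles for the high number range. Ctsw follows the level closely (Pearson 0.97), and Gzma lies lower in TUDCA than in vehicle arrays at like levels. TUDCA replicate 2 is the point at the far left.

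Among one another, the granule genes also differed in how closely they moved together. Over the 12 arrays Gzma and Gzmb correlated at 0.93, Gzmb and Ctsw at 0.92, and Nkg7 and Ctsw at 0.91. These arrays share treatment groups and ranges, so genes that differ between the groups can correlate through that difference. The same pairs correlated at 0.81, 0.80 and 0.85 without TUDCA replicate 2. Taken as deviations from the group and range means of all arrays, they correlated at 0.78, 0.91 and 0.79. Gzma and Prf1 correlated at 0.39, and at −0.03 without TUDCA replicate 2. Prf1 correlated at 0.74 with Srgn, 0.72 with Nkg7, 0.69 with Ctsw and 0.61 with Gzmb, and at 0.25 with Gzmc and 0.02 with Gzmm. Its correlations with Srgn, Nkg7, Ctsw and Gzmb ran from 0.39 to 0.62 when that array was left out. In deviations from the group and range means, Prf1 correlated at 0.83 with Srgn, 0.78 with Nkg7, 0.70 with Ctsw and 0.60 with Gzmb. On that measure it correlated at 0.20 with Gzma, 0.30 with Gzmc and −0.09 with Gzmm. The genes most like Gzma, among 11070 probe sets naming 1 gene with a mean above the median, were Tbk1 (Pearson 0.98 over 12 arrays), Fas (0.96), Cd8b1 (0.96), Igtp (0.95) and Rnf19b (0.95). Tbk1 encodes a kinase of innate immune signalling, Fas a death receptor and Igtp an interferon-inducible GTPase. Those most like Gzmb were Cd8b1 (0.97), the chemokine gene Ccl5 (0.95), Ms4a6b (0.94), Cd3e (0.94) and Cd48 (0.93). Without TUDCA replicate 2 these correlations ran from 0.83 to 0.95. The genes were chosen for likeness, so their own differences are no separate evidence.

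The wider pathway is given from lists, whose counts stand beside 1.52% of all probe sets lower and 1% higher. Of 5 other granzymes 4 were measured, Gzmd, Gzmf, Gzmg and Gzmn, and 0 passed in either direction, with a median difference of 0.01. Their genes are close relatives of Gzmc, and cross-hybridisation among them was not tested. Gzmf was at 3.50 ± 0.17 with TUDCA and 3.54 ± 0.21 with vehicle, and Gzmn at 4.77 ± 0.47 and 4.45 ± 0.35 (SD, n = 6 each). Gzmb lies between Gzmc and Atp12a on its chromosome, and Gzma beside Gzmk. Of 12 measured neighbours of the listed genes that are not themselves listed, 0 passed. Their differences lay between −0.13 and 0.30.

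Of 10 genes of granzyme processing and the granule membrane, which include the granzyme-activating protease gene Ctsc, 1 was lower and 0 were higher (median −0.05). That gene was Lamp2, a membrane protein of lysosomes in all cells, at 9.92 ± 0.10 with TUDCA and 10.19 ± 0.09 with vehicle (SD, n = 6 each, difference −0.31, adjusted p = 0.0109 by limma). Of 25 genes of granule exocytosis, 1 was lower and 0 were higher (median −0.02). Coro1a, an actin regulator of leukocytes, fell by 0.34 (adjusted p = 0.0323 by limma). Without TUDCA replicate 2 neither gene passed, and Coro1a did not pass without TUDCA replicate 1 or vehicle replicate 3 or 6 either (adjusted p up to 0.137 by limma).

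Granzyme inhibitors of the serpin family had 0 of 11 measured genes past the threshold (median 0.05). The nearest were Serpinb6a at 0.23 ± 0.07 (SE, adjusted p = 0.115 by limma) and Serpinb9f at 0.29 ± 0.10 (SE, adjusted p = 0.166 by limma). Of 12 genes whose proteins granzymes are known to cleave, 1 was higher and 0 were lower. Lmna, encoding lamin A of the nuclear envelope, rose by 0.38 (adjusted p = 0.0137 by limma), and without TUDCA replicate 2 it did not pass (adjusted p = 0.0579 by limma). The arrays measure transcripts, so protease activity on these proteins is not part of the data.

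Ligands and cytokines of cytotoxic lymphocytes differed below 0 in all 10 measured genes, where 46.7% of all probe sets had a negative difference, and 2 of the 10 passed (median −0.36). Ccl5, a chemokine that these cells store and secrete, ran from 7.39 to 9.94 with TUDCA and from 9.61 to 10.60 with vehicle, and it fell by 1.28 (SE 0.28, adjusted p = 0.0265 by limma). Tnfsf10, encoding the death ligand TRAIL, fell by 0.78 (SE 0.15, adjusted p = 0.0125 by limma). The groups overlapped for each of these genes, and neither passed without TUDCA replicate 1 or 2, nor Ccl5 without vehicle replicate 3 (adjusted p up to 0.0669 by limma). Fasl, the Fas ligand gene that serves the other killing route, was at −0.34 and Ifng, encoding interferon gamma, at −0.30, and neither passed (adjusted p = 0.27 and 0.16 by limma). Lta and Csf2 lay nearest to 0, at −0.06 each. Which cells of the tissue expressed the 10 genes was not measured.

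Of 21 regulators of cytotoxic genes, 3 were lower and 1 was higher (median −0.13), against 1.52% and 1% of all probe sets. Il15ra, which presents the growth factor IL-15 to T and NK cells, fell by 0.49 (adjusted p = 0.0178 by limma). Its groups did not overlap, a separation in that direction seen for 1.18% of all probe sets. Nfil3, a transcription factor needed for NK cells, fell by 0.49 (adjusted p = 0.0215 by limma). Prdm1, encoding Blimp-1 of effector T cells, fell by 0.51 (adjusted p = 0.0499 by limma) and kept its call in only 2 of the 12 fits with an array left out. Bhlhe40, a transcription factor of activated T cells, rose by 0.54 (adjusted p = 0.0148 by limma). Without TUDCA replicate 2 none of the 4 passed. Bhlhe40 and Nfil3 did not pass without TUDCA replicate 1 either, nor Nfil3 without vehicle replicate 6 or Il15ra without vehicle replicate 5. These genes are expressed in many cell types, and their source in the tissue was not measured.

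**Figure D4:**
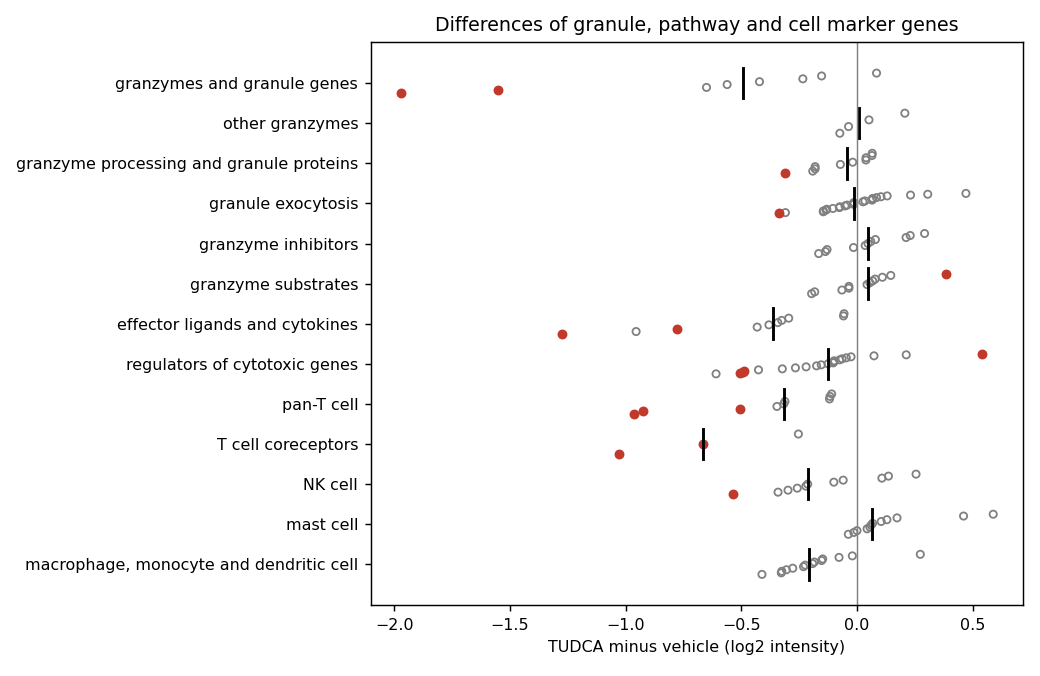
TUDCA minus vehicle difference in log2 intensity for each measured gene of the granule genes and of 12 further lists, with filled red points for genes past the threshold, open points for the rest and a black bar at each list's median. The granule genes have a median of −0.49, the T cell coreceptors of −0.67 and the other granzymes of 0.01.

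Some markers of T cells were lower as well. Of the 9 measured pan-T cell genes 3 were lower and 0 higher (median −0.32), against 1.52% and 1% of all probe sets. Their mean level ran from 5.87 to 6.78 with TUDCA and from 6.54 to 7.12 with vehicle. Cd3e fell by 0.93 and Lat by 0.51 (adjusted p = 0.0137 and 0.0462 by limma). Cd3g fell by 0.96 (adjusted p = 0.048 by limma), a call that none of the 12 fits with an array left out kept, Lat keeping its own in 4. Of the coreceptors, Cd8a fell by 1.03 and Cd8b1 by 0.67 (adjusted p = 0.0187 and 0.00497 by limma). Both were without overlap between groups, a separation seen for 1.18% of all probe sets, and both were called with every array left out in turn. Cd4 was at −0.25 (adjusted p = 0.752 by limma). The part of T cell number in the granzyme differences was not tested, since no cells were counted.

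NK cell markers were low on the arrays. Of 11 measured, 5 had means below the lower quartile of all values, among them Ncr1, listed here as an NK cell marker, at 4.47 with TUDCA and 4.34 with vehicle. The mean level of the list ran from 4.50 to 4.92 with TUDCA and from 4.78 to 4.97 with vehicle (median difference −0.21). The inhibitory receptor gene Klrc1 passed (−0.54, adjusted p = 0.0327 by limma) and kept its call in 4 of the 12 fits with an array left out. Of 11 listed genes of intraepithelial and gamma delta T cells 5 were measured, with no gamma delta receptor gene among them. Itgae, the integrin that holds T cells in the epithelium, was lower (−0.50, adjusted p = 0.0339 by limma, kept in 3 of the 12 fits). The list's mean levels did not overlap, at 6.13 to 6.34 with TUDCA and 6.42 to 6.60 with vehicle. For each of the 5 genes alone the groups overlapped, and Ahr was at −0.01. How often means of 5 genes separate the groups was not computed.

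Other cells that can hold granzymes or serglycin were read in the same way. Of 12 mast cell genes 0 passed and 8 had means below the lower quartile, with list levels of 4.13 to 4.82 with TUDCA and 4.10 to 4.50 with vehicle. Of 14 macrophage, monocyte and dendritic cell genes 0 passed and 13 had a negative difference, against 46.7% of all probe sets. Their median was −0.21, with levels of 7.47 to 7.97 with TUDCA and 7.81 to 8.20 with vehicle. TUDCA replicates 2 and 6 lay at 7.47 and 7.48, and the other TUDCA arrays from 7.87 up. Among 9 neutrophil genes 1 was higher, Ly6g (1.26 ± 0.26 SE, adjusted p = 0.0211 by limma), and the list's median was 0.05. Of these genes 4 had means below the lower quartile. The highest mean of the list, 5.94, lay near the median of the probe set means, 5.93. List levels were 4.67 to 4.77 with TUDCA and 4.50 to 4.73 with vehicle. Ly6g did not pass without TUDCA replicate 1 or 2 or vehicle replicate 6 (adjusted p up to 0.0902 by limma). No gene passed among 5 plasmacytoid dendritic cell, 6 B and plasma cell, 4 platelet, 6 endothelial and 13 epithelial genes, with list medians from −0.14 to 0.01. The part of these cells in the Srgn difference was not tested.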

How the data were processed

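The authors deposited log2 intensities, 1 for each probe set on each array. They were made with oligo and RMA (background correction, quantile normalisation, probe summary), per the submitters' processing notes, which give no versions. Scanner files were not used here. Quantile normalisation hides a shift common to all transcripts, and no detection calls came with the values. The platform annotation named the 23991 probe sets.

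R 4.3.3 and limma 3.58.1 were used to estimate differences (lmFit with treatment and number range as terms, eBayes with a variance trend, two-sided) over all probe sets, with Benjamini-Hochberg adjustment and a threshold of 0.05. The fit was tested on simulated data. The p-values treat the arrays as separate mice, going by the sample numbers. Array values are log2 intensities, and SE and intervals come from the fit or, for differences from a marker level, from a linear model with the same terms.

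The genes and the 20 lists, with 199 of 225 listed genes measured, were chosen with earlier results of these data known. Genes were named by rule: the granule genes, the called genes of each list where 4 or fewer were called, otherwise the 4 with the smallest p, up to 2 with the smallest p where none was called, and the 5 genes most correlated with each called granule gene. Other genes named in passing were chosen after their values were seen. Alternatives were a fit without the range, a replicate block, each range alone, other filters, normalisation, variance models, array weights, 1 probe set per gene, a T cell term and omission of each array. Promoters are RefSeq sequences (GRCm38.p6).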

Additional observations from a re-analysis of the deposited data

Results flagged for a closer look

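In 102 groups of 6 arrays, 1 for each named gene and treatment, the highest or lowest array was checked by Dixon's criterion, by which chance singles out about 1 group in 20. It singled out 7. Among the granule genes this was Gzmm in vehicle replicate 5 (6.16, the others 5.55 to 5.75). TUDCA replicate 2 was lowest for the T cell genes Cd8b1 (6.65, the others 7.27 to 7.50), Cd3e (6.69, the others 7.54 to 8.02) and Cd3g (6.24, the others 7.49 to 7.96). The other arrays were vehicle replicate 4 for Bhlhe40 (9.48, the others 8.88 to 9.06), TUDCA replicate 3 for Cox6a2 (5.16, the others 5.44 to 5.51) and TUDCA replicate 6 for Ppbp (4.84, the others 4.38 to 4.51).

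For 3 genes every TUDCA array deviated one way in the low and the opposite way in the high number range. The difference was −0.058 in the low and 0.47 in the high range for Gzmn, 0.031 and −0.23 for Cox6a2, and −0.16 and 0.34 for Ppbp. The interaction of treatment and range did not pass for any of the 3 (adjusted p = 0.767, 0.744 and 0.588 by limma).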

How the results depend on the processing

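The count of granule genes lower with TUDCA was 2, and 0 were higher under every alternative. The lower count was 0 without the number range, 1 in the high range alone, with robust variances, with array weights and with the pan-T cell term, and 3 in the low range alone, without dim probe sets and at a threshold of 0.1. It ran from 1 to 3 with each array left out. Over all probe sets 241 were higher and 364 lower. The counts were 91 to 292 and 151 to 417 with each array left out, 6 and 3 in the high range alone, 436 and 526 with array weights, 429 and 541 at the 0.1 threshold, and 68 and 83 with the pan-T cell term. Of 2 alternatives chosen after seeing the data, the pan-T cell term without TUDCA replicate 2 gave 41 and 54 with 1 granule gene, and the Cd8a and Cd8b1 term gave 2 and 4 with 0. The causes were not tested.

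With the replicate block and the range, the counts were 85 higher and 190 lower, with 3 granule genes lower, Gzma, Gzmb and Nkg7 (adjusted p = 0.0186, 0.0226 and 0.0391 by limma). With the replicate block and no range they were 213 and 409, with 4, Gzma, Gzmb, Nkg7 and Ctsw (adjusted p = 0.0225, 0.0182, 0.0103 and 0.0216 by limma). Same-numbered arrays had correlations of deviations from −0.06 to 0.26, not above 0.1 in every pair, and the labels name no shared source, so the numbers were not taken as pairs. As a hint from the data, 4 of 6 numbers matched best with their own.

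Signs turned as follows. In the low range alone Gzmn was at −0.058, Cox6a2 at 0.031 and Ppbp at −0.16, and in the high range alone Prf1 at 0.17 and Gzmf at 0.026. With each array left out Prf1 ran from −0.26 to 0.0056, the latter without TUDCA replicate 2. With the pan-T cell term Prf1 was at 0.37, Ms4a6b at 0.046 and Lepr at 0.00050. With the same term and no TUDCA replicate 2, Prf1 was at 0.40, Ms4a6b at 0.0091, Cd48 at 0.013, Mcpt2 at −0.020 and Lepr at 0.022. With the Cd8a and Cd8b1 term Gzmb was at 0.34, Prf1 at 0.58, Nkg7 at 0.11, Srgn at 0.11, Ctsw at 0.34, Ccl5 at 0.16, Ms4a6b at 0.41, Cd48 at 0.19, Lat at 0.0026, Cd3g at 0.32, Cd8a at 0.13, Klrc1 at 0.020, Mcpt2 at −0.65, Lyz2 at 0.036, Tnfrsf17 at 0.054, Kdr at 0.064, Pdgfrb at 0.012 and Lepr at 0.11. The number of arrays and the low signal of Gzmc and the NK and mast cell markers limit the precision.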
